A study of Mus musculus with 6 samples.

Results

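The 7 genes described here are Nck2, Mex3b, Gdpd1, Myo9a, Atp13a3, 4932438A13Rik and 6330407A03Rik, out of 19938 genes that the arrays read with at least 1 probe set of their own. They were picked from the values themselves, as genes away from Fosb whose fosB-null minus wild-type difference had the same sign for replicates 1, 2 and 3. Together they have 38 of the 23410 probe sets with a gene symbol. The arrays hold total RNA of untreated microglia, the macrophages that live in brain tissue. The cells came from cortices of mouse pups at 2 days of age, were cultured for 10 days and were replated for 24 h. The 3 fosB-null arrays come from mice homozygous for the null allele fosBG, which was backcrossed to C57BL/6J until generation N20. The 3 wild-type arrays come from C57BL/6J mice, the strain that both groups share. The labels call the arrays biological replicates and do not say whether cultures, litters or pools were separate, so the spread given below is that between these arrays. The allele is null in every cell of the animal, and not in microglia alone.

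Fosb encodes FosB, which pairs with JUN proteins to form AP-1, a transcription factor family that cells induce soon after stimulation and that binds DNA at short palindromic elements. The 7 genes do not form 1 pathway. Nck2 encodes an SH2 and SH3 adaptor that links phosphorylated receptors to actin regulators, and Myo9a an unconventional myosin. Mex3b encodes an RNA-binding protein with KH domains, reported to assist TLR3 signalling. Gdpd1 encodes a phosphodiesterase that releases lysophosphatidic acid and N-acylethanolamines from lysophospholipids. Atp13a3 encodes a P5-type ATPase of endosomes that carries polyamines, and 4932438A13Rik, listed in RefSeq with the synonyms Kiaa1109 and Tweek, encodes a very large protein of the bridge-like lipid transfer family. RefSeq lists 6330407A03Rik as a long non-coding RNA.

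Of the 7 genes, 6 lie on other chromosomes than Fosb, namely Nck2 on 1, Gdpd1 on 11, Myo9a on 9, Atp13a3 on 16, 4932438A13Rik on 3 and 6330407A03Rik on 4. Mex3b lies on chromosome 7 as Fosb does, 654 measured genes away, and thus outside the 200 measured genes nearest to Fosb but on the same chromosome. 6330407A03Rik lies wholly within the interval of Lyn, which encodes a SRC family kinase, and no probe set is assigned to Lyn alone in the platform table, so the levels of the gene that contains it were not analysed here. RefSeq promoter windows (assembly GRCm38.p6, 250 bases before to 50 after the start) were at hand for 5 of the genes. None of the 5 held the AP-1 element TGANTCA, which 6.88% of 19116 windows of measured genes hold, and none held the full cAMP response element TGACGTCA, which 2.37% hold. The shorter TGACG, the first letters of that element, was present in 4 of the 5 on 1 strand or the other, and in 4774 of the 19116 windows (24.97%). Both the AP-1 and the full element read the same on either strand, and each full element contains TGACG. These 4 windows are shown 5′ to 3′ because they hold the motif, with TGACG or its reverse complement in capitals.
Nck2 (chr1:43445501-43445800, plus strand): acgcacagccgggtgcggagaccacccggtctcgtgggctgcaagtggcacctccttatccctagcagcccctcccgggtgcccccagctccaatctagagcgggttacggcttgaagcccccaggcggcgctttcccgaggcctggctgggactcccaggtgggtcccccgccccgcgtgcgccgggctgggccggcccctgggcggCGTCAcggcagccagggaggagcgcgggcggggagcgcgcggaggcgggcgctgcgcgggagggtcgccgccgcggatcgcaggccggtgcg
Mex3b (chr7:82867083-82867382, plus strand): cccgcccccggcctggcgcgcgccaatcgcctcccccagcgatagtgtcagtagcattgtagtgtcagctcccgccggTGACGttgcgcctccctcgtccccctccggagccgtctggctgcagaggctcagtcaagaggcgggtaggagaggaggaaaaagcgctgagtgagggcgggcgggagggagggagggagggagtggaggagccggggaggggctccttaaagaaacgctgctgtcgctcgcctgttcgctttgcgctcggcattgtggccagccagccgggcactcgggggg
Gdpd1 (chr11:87074088-87074387, minus strand): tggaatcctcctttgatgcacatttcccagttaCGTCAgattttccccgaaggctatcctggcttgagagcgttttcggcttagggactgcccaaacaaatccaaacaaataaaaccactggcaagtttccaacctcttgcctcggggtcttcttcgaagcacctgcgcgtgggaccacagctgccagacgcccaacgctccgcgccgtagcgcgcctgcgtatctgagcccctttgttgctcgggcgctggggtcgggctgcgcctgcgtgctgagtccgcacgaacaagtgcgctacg
4932438A13Rik (chr3:36862856-36863155, plus strand): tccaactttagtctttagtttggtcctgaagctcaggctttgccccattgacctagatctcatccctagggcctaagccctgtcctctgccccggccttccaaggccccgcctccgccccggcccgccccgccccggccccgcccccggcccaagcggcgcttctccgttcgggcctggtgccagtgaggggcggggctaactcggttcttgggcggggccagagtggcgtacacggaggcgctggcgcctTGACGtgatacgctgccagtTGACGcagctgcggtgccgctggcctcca
The motif starts 42 bases before the start in Nck2, 172 before it in Mex3b and 217 before it in Gdpd1, whereas 4932438A13Rik has it at 1 and 21 bases after the first base of the transcript. The genes with the motif include those with lower and with higher signals in fosB-null arrays. The windows of these 4 genes are 58.3% to 76.7% G and C, against a median of 57.7% over all windows, and Myo9a without the motif has 74.3%.

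Before the values, 1 feature of the arrays bears on all of them. Arrays with the same replicate number, 1 of each genotype, held identical values in 45.2% to 51.3% of all probe sets, and other pairs of arrays shared at most 3 values. Each replicate number is therefore treated as a pair. The sources used here record no step that would give arrays of different genotype the same value, so a tie, or a median of 0 that rests on ties, may not be measured equality. All 3 pairs differed in 3520 of the tested probe sets, and only those could have the same sign in every pair. A mean over the probe sets of a gene can include tied ones as well. The same sign in all 3 pairs was found in 7.77% of the 23410 tested probe sets, with 2.2% higher and 5.57% lower in fosB-null arrays. These are 1820 probe sets, all of them among the 3520, so the same sign was common where no pair was tied. Away from Fosb, 1587 genes had at least 1 single-gene probe set of that kind. Because the contrast chose the genes, their differences are given as a description without a test. All levels and differences are on the log2 scale. Brightness served to choose the probe set that stands for a gene, and is not read as an amount of RNA compared between probe sets. Each SE comes from the limma fit without a block, so it ignores the pairing and is moderated across all tested probe sets. It therefore differs from an SE taken from the printed SDs or from the pair differences.

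Nck2 had the largest negative difference of the 7 genes. Its log2 signal was 9.83, 9.80 and 9.62 in fosB-null replicates 1, 2 and 3, against 10.24, 10.30 and 10.07 in wild-type replicates 1, 2 and 3. The groups did not overlap, and replicate 3 was the lowest array in each. The means were 9.75 ± 0.12 in fosB-null and 10.20 ± 0.12 in wild-type arrays (SD, n = 3 each), so that the signal was lower by a log2 difference of -0.45 (SE 0.10), which is 1.37-fold. In pairs 1, 2 and 3 the difference was -0.41, -0.50 and -0.45. By its smallest pair difference Nck2 ranked 6 among the 1205 single-gene probe sets away from Fosb that were lower in every pair.

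Gdpd1 had almost the same difference in every pair, although its level varied between replicates by as much as the genotypes differed. The fosB-null arrays had log2 signals of 11.52, 11.44 and 11.14 in replicates 1, 2 and 3, and the wild-type arrays 11.87, 11.77 and 11.48. The groups overlapped, because wild-type replicate 3 lay below fosB-null replicate 1. The pairs differed by -0.35, -0.33 and -0.34. The mean was 11.37 ± 0.20 in fosB-null and 11.71 ± 0.20 in wild-type arrays (SD, n = 3 each), so that the log2 difference was -0.34 (SE 0.14, without the pairing), or 1.27-fold lower.

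Mex3b was lower by the smallest amount of these 3 genes, and its replicates were the closest. The log2 signal was 8.82, 8.75 and 8.71 in fosB-null replicates 1, 2 and 3, against 9.08, 8.99 and 8.97 in wild-type replicates 1, 2 and 3. The groups did not overlap. With means of 8.76 ± 0.06 in fosB-null and 9.01 ± 0.06 in wild-type arrays (SD, n = 3 each), the log2 difference was -0.25 (SE 0.07), and the pairs gave -0.26, -0.24 and -0.26. This corresponds to a 1.19-fold lower signal.

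6330407A03Rik, the long non-coding RNA, had the largest difference of the 7 genes and was higher in fosB-null arrays. Its log2 signal was 10.05, 10.15 and 10.29 in fosB-null replicates 1, 2 and 3, and 9.51, 9.44 and 9.62 in wild-type replicates 1, 2 and 3. The lowest fosB-null array lay above the highest wild-type array. The means were 10.17 ± 0.12 in fosB-null and 9.52 ± 0.09 in wild-type arrays (SD, n = 3 each), which puts the log2 difference at 0.64 (SE 0.09), or 1.56-fold higher. The pairs differed by 0.54, 0.71 and 0.68. Among the 469 single-gene probe sets away from Fosb that were higher in every pair, this one ranked 1 by its smallest pair difference. Replicate 3 was its highest array in each genotype, the reverse of Nck2, Gdpd1 and Mex3b, whose replicate 3 was the lowest in each.

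**Figure D1:**
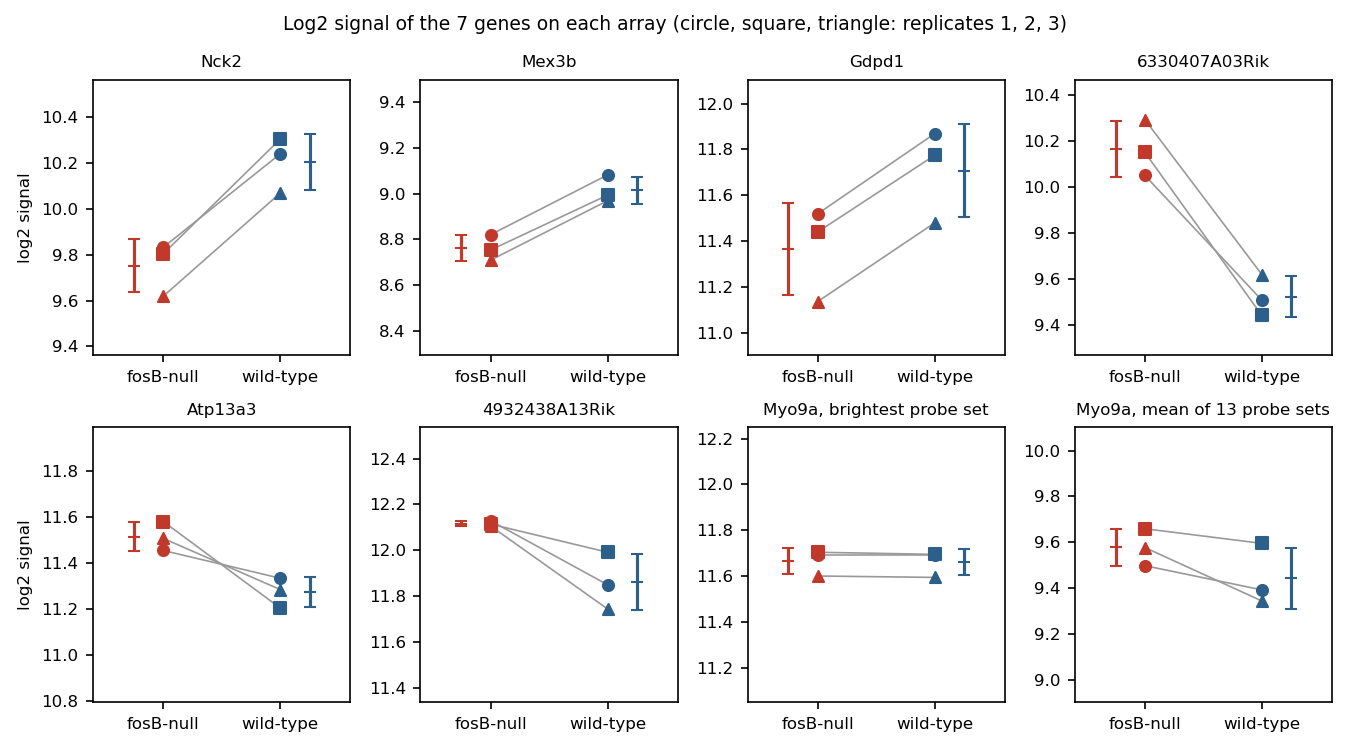
Log2 signal (vertical axes, each spanning the same range) of the 7 genes on the 6 arrays, with fosB-null on the left and wild-type on the right of each panel; symbols mark replicates 1, 2 and 3, grey lines join the same replicate number, and bars at the side are mean ± SD (n = 3). Lines run in 1 direction for 6 genes by their brightest probe set, whereas the brightest Myo9a probe set is nearly level.

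Atp13a3 is read by a pair of probe sets. On the brighter one the log2 signal was 11.45, 11.58 and 11.51 in fosB-null replicates 1, 2 and 3, and 11.33, 11.20 and 11.28 in wild-type replicates 1, 2 and 3. The groups did not overlap, and replicate 2 was the highest of its group in fosB-null and the lowest in wild-type arrays. The log2 difference was 0.24 (SE 0.07), from means of 11.51 ± 0.06 in fosB-null and 11.27 ± 0.07 in wild-type arrays (SD, n = 3 each), and it was 0.12, 0.38 and 0.22 in the pairs. On the dimmer probe set the pairs differed by 0.29, 0.00 and 0.23, with identical values in pair 2, the pair with the largest difference on the brighter one.

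4932438A13Rik is read by 19 probe sets, and none of its 57 pair differences was below 0. Of these values 52 were above 0 and 5 were exact ties, all 5 in pair 2. The mean difference per probe set ran from 0.06 to 0.29 with a median of 0.14, and the groups did not overlap in 3 of the 19. On the brightest probe set the log2 signal was 12.13, 12.11 and 12.11 in fosB-null replicates 1, 2 and 3, and 11.85, 11.99 and 11.74 in wild-type replicates 1, 2 and 3. The fosB-null arrays lay within a narrow band above the 3 wild-type arrays, with means of 12.12 ± 0.01 in fosB-null and 11.86 ± 0.12 in wild-type arrays (SD, n = 3 each), and a log2 difference of 0.25 (SE 0.08). Averaged over the 19 probe sets, the difference was 0.20 in pair 1, 0.08 in pair 2 and 0.21 in pair 3. Probe sets of 1 gene measure the same RNA on the same arrays and are not replicates.

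Myo9a did not show the shift on its brightest probe set. That probe set had log2 signals of 11.69, 11.70 and 11.60 in fosB-null replicates 1, 2 and 3, and 11.69, 11.69 and 11.59 in wild-type replicates 1, 2 and 3. The values of pair 1 were identical, those of pairs 2 and 3 differed by 0.01 each, and the groups overlapped. Of the 12 dimmer probe sets, 1 (10585988) had the largest difference: its log2 signal was 9.88, 10.04 and 10.15 in fosB-null replicates 1, 2 and 3, and 9.64, 9.80 and 9.60 in wild-type replicates 1, 2 and 3. The groups did not overlap there, and the log2 difference was 0.34 (SE 0.10), with 0.23, 0.24 and 0.56 in the pairs. Over all 13 probe sets, 32 of 39 pair differences were above 0, 7 were ties and 0 were below. The mean over the 13 probe sets was 9.58 ± 0.08 in fosB-null and 9.44 ± 0.13 in wild-type arrays (SD, n = 3 each), and differed by 0.11, 0.06 and 0.23 in the pairs.

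The selection by sign admitted very small differences. By smallest pair difference, Gdpd1 ranked 12 and Mex3b 22 of the 1205 lower probe sets, and Atp13a3 ranked 51 of the 469 higher ones. The probe sets of 4932438A13Rik with the same sign in every pair ranked from 7 to 358 of the 469, and those of Myo9a from 11 to 461. In either direction, 142 probe sets away from Fosb had a smallest pair difference of at least that of Atp13a3, and 9 of them belong to the 7 genes. The Myo9a probe set just inside it (10585980) differed by 0.001, 0.02 and 0.20 in pairs 1, 2 and 3, and the brightest one, just outside it, by 0.00, 0.01 and 0.01. In all, 26 of the 38 probe sets had the same sign in all 3 pairs and the other 12 had at least 1 tie. By the brightest probe set of each gene, 6 of 7 genes had the same sign in every pair, and 5 of 7 had groups that did not overlap, where 1.12% of tested probe sets had such groups (0.41% higher and 0.709% lower in fosB-null arrays). By the mean over the probe sets of each gene these counts were 7 and 4. Groups that do not overlap always have the same sign in every pair, so the selection itself favoured them. All 262 tested probe sets with such groups lie among the 1820 with the same sign in all 3 pairs. The share over all tested probe sets is thus no measure of what sets the 7 genes apart.

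**Figure D2:**
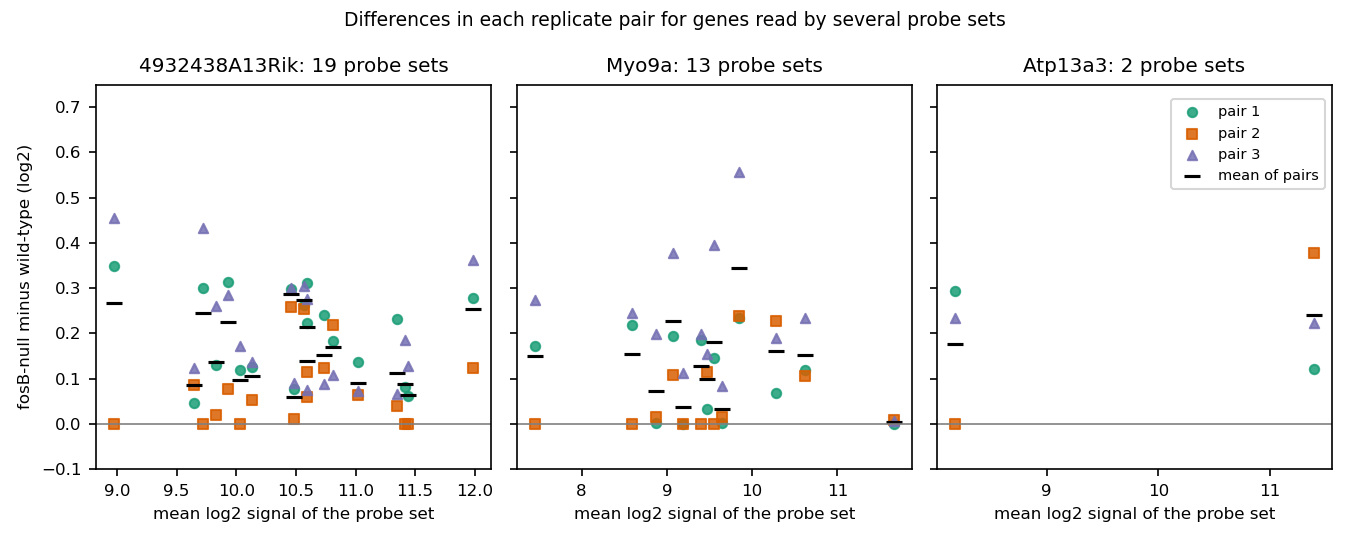
Difference between fosB-null and wild-type (log2, vertical axis) in each replicate pair against the mean log2 signal (horizontal axis) for every probe set of 4932438A13Rik, Myo9a and Atp13a3; black dashes are the mean of the 3 pairs. Every point lies at or above 0, and the points at exactly 0 belong to pair 2 in 4932438A13Rik and Atp13a3 and to pairs 1 and 2 in Myo9a.

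Only 24 genes were read by 10 or more probe sets of their own, and Myo9a and 4932438A13Rik ranked 2 and 3 among them by median difference, at 0.15 and 0.14. The 1 above them was Fat3, an atypical cadherin gene, at 0.19 over 15 probe sets, with 43 pair differences above 0 and 0 below. Rps12, a ribosomal protein gene, was the fourth at 0.03. All probe sets had a mean above wild-type in 4 of the 24 genes, those just named, and the median of the 24 medians was 0. Genes with a median of 0 had probe sets with equal means in both groups. The ranks of Myo9a and 4932438A13Rik are thus partly set against ties, which may not be measured equality. Chd7, a chromatin remodeller, had the lowest median, at -0.08 over 30 probe sets. Fat3 and Myo9a lie on the same chromosome, 9. Fat3, Rps12 and Chd7 were chosen after their values were seen.

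**Figure D3:**
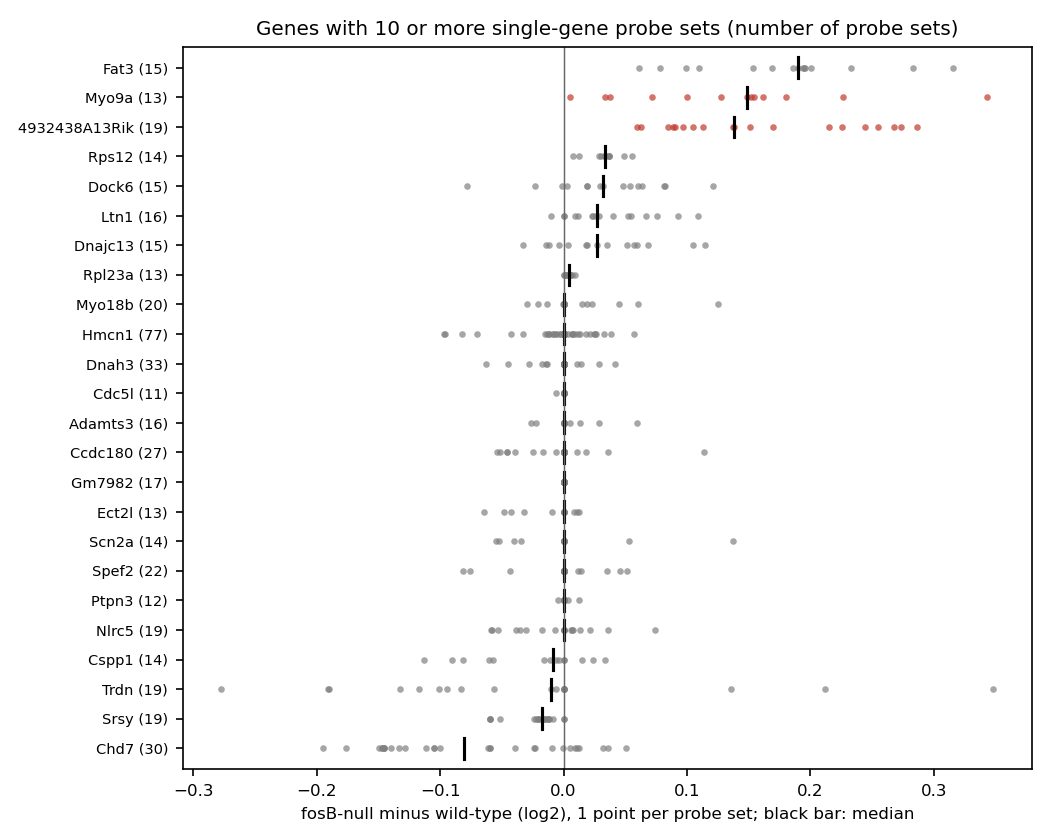
Difference between fosB-null and wild-type (log2, horizontal axis) for each probe set of the 24 genes with 10 or more single-gene probe sets, ordered by their median (black bar), with Myo9a and 4932438A13Rik in red. Their points and those of Fat3 and Rps12 all lie above 0. Most other genes have a median of 0, which rests on probe sets with equal means in both groups.

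Across the array, larger differences than that of 6330407A03Rik were found in either direction. At an adjusted p under 0.05, limma without a block called 0.00427% of tested probe sets, which is 1 of 23410 (169, or 0.722%, at an unadjusted p under 0.05). That call was C5ar2, a receptor for complement C5a near Fosb and no member of this group. With the replicate number as a fixed block, limma called 0 (541, or 2.31%, at an unadjusted p under 0.05). With it as a random block, limma called 47, or 0.201% (2255, or 9.63%, at an unadjusted p under 0.05).

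**Figure D4:**
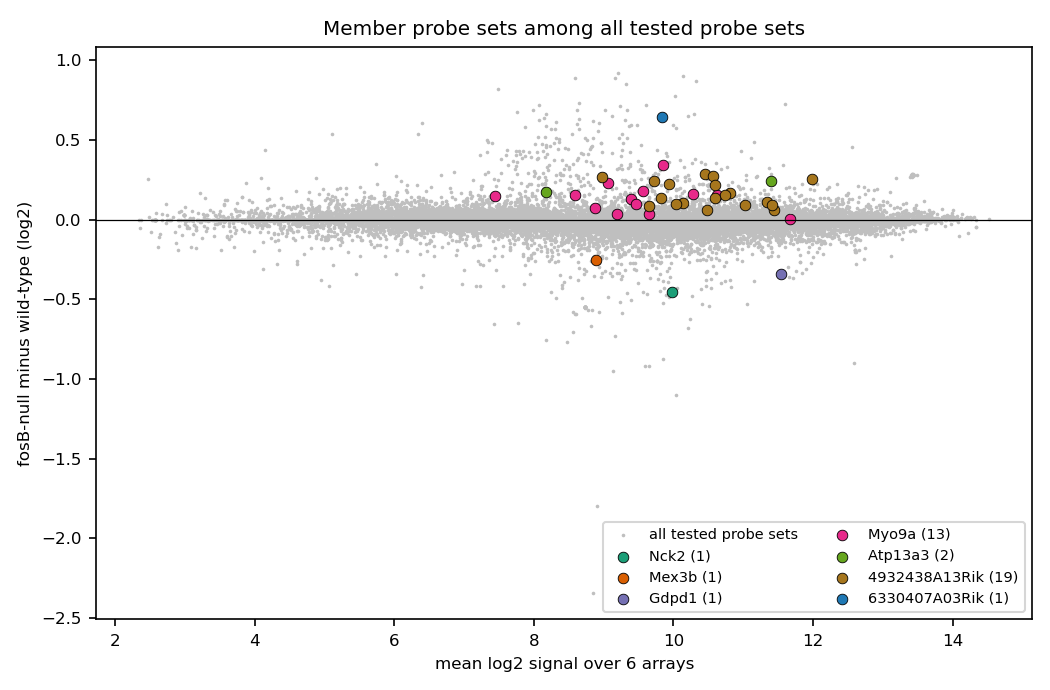
Difference between fosB-null and wild-type (log2, vertical axis) against mean log2 signal over 6 arrays (horizontal axis) for all 23410 tested probe sets (grey) and the 38 of the 7 genes (coloured, number of probe sets in the legend). Nck2, Gdpd1 and Mex3b lie below 0 and the other 35 probe sets above it.

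The other genes of the pathways in which the 7 work were compared by the brightest probe set of each. Over 6 lists with 96 distinct genes, limma called 0 at an adjusted p under 0.05, and 0 had an unadjusted p under 0.05. With the fixed replicate block 0 were called and 2 had an unadjusted p under 0.05, and with the random block 0 and 13. The median difference over all 19938 genes was 0, since many were tied.

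For the partners of Nck2 in actin regulation, the means were spread evenly about 0. Of 27 measured genes 10 had higher means in fosB-null arrays, 10 lower and 7 identical values in all pairs, with a median difference of 0. Nck1, the closest relative, differed by 0.02, with ties in pairs 1 and 2. The largest differences were those of Cyfip2, a subunit of the WAVE complex, at 0.10, Wipf2, a partner of WASP proteins, at -0.09, and Arhgef7, an exchange factor bound to PAK kinases, at 0.08. None of these 4 had the same sign in every pair.

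In the family of Mex3b, Mex3c and Mex3d had lower means too, at -0.05 and -0.12, and each was lower in all 3 pairs. Over the array 5.57% of tested probe sets were lower in every pair. Mex3a differed by -0.04, with ties in 2 of the pairs. Of the 11 other genes in the list, which adds TLR3 signalling, 8 had lower means, 2 higher and 1 ties throughout, with a median of -0.05. Tlr9 had the largest difference outside the family, at 0.09, and Irf3, the transcription factor below TLR3, and Ikbke, a kinase that activates it, differed by -0.08 each. Tlr3 also differed by -0.08, with a tie in pair 3. These genes lay closer to 0 than Mex3b at -0.25, and 0 of the 11 were called by limma (0 at an unadjusted p under 0.05). With the fixed block 0 were called and 0 had an unadjusted p under 0.05, and with the random block 0 and 3.

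Relatives of Gdpd1 and enzymes of N-acylethanolamine turnover showed a median of 0 over 11 genes, with 3 higher, 5 lower and 3 tied throughout. Gde1, a further glycerophosphodiesterase of this pathway, differed by -0.14, but by 0.00 in pair 3. Gdpd2, Gdpd3 and Gdpd5 differed by 0.01, -0.03 and -0.06, and Gdpd4 was tied in all pairs. Naaa, an amidase of lysosomes that breaks down these lipids, differed by 0.14 and was higher in every pair. Napepld, which encodes the main phospholipase D that forms them, differed by 0.02.

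Among the other unconventional myosins 9 of 22 had higher means, 5 lower and 8 were tied throughout, with a median of 0. The same sign in every pair was found in 3 of the 22, with 1 higher and 2 lower. Myo9b, the only other class IX gene, was tied in all 3 pairs on its brightest probe set. The largest differences belonged to Myo18b at 0.12, Myo7a at 0.10 and Myo10 at -0.09.

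The other genes of the Atp13a3 family lay near 0. Atp13a1 and Atp13a2 differed by -0.02 and -0.06, Atp13a5 by 0.00, and Atp13a4 was tied in all pairs. Over the 16 other genes of the list 5 had higher means, 10 lower and 1 ties throughout, with a median of -0.01, and 0 had the same sign in every pair. The largest were Odc1, the enzyme that opens polyamine synthesis, at -0.11, all of it from pair 2, and Dhps and Dohh, which make hypusine from spermidine, at -0.10 and -0.09.

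The bridge-like lipid transfer list gave 5 higher and 4 lower means of 9 genes and a median of 0.00, and 3 of its VPS13 genes were higher in every pair. Over the array 2.2% of the 23410 tested probe sets, most of which held a tie, were higher in every pair. The count in this list was not tested. Vps13c differed by 0.16, at 0.14, 0.12 and 0.22 in the pairs, Vps13a by 0.12 and Vps13b by 0.06, whereas Vps13d differed by 0.00. Neither these nor the autophagy genes Atg2a and Atg2b, at -0.01 each, were called by limma. With the fixed block 0 were called and 2 had an unadjusted p under 0.05, and with the random block 0 and 3.

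**Figure D5:**
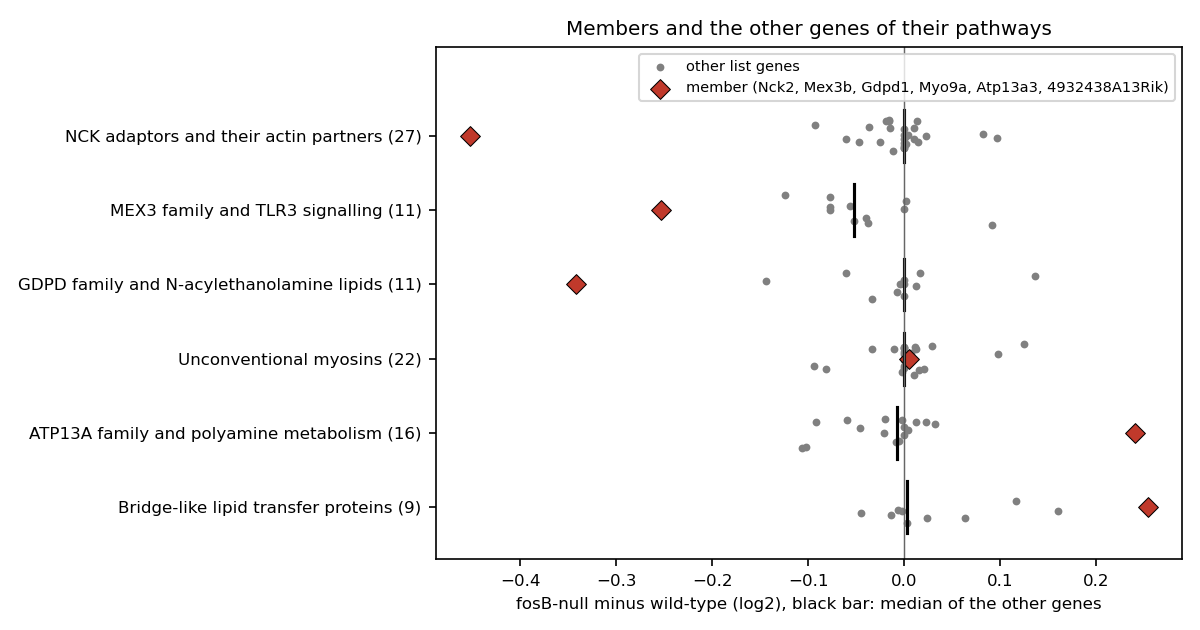
Difference between fosB-null and wild-type (log2, horizontal axis) by the brightest probe set of each gene, for the 6 members with a pathway list (red diamonds) and the other genes of each list (grey, number in parentheses, black bar at their median). Apart from Myo9a near 0, each of these members, which were chosen for their difference, lies farther from 0 than every other gene of its own list.

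The genes whose profile over the 6 arrays was most like that of each member were looked up among 3034 named probe sets without ties in any pair. The correlation holds the genotype difference and the shared replicate numbers together and is only a description. Nck2 was most like C5ar1 (Pearson r = 0.99), the main C5a receptor, which differed by -0.90, and Bloc1s3 (r = 0.98), a subunit of a lysosome biogenesis complex, and both lie near Fosb. Mex3b was most like Cpe (r = 0.98), carboxypeptidase E, and the zinc finger gene Zfp46 (r = 0.97), and Gdpd1 most like Cib1 (r = 0.99), a calcium-binding partner of integrins, and the transcription factor gene Sox4 (r = 0.99). Atp13a3 and 6330407A03Rik shared their nearest gene, the sorting nexin gene Snx24 (r = 0.97 for each), followed by Pou5f2 for Atp13a3 (r = 0.96) and the adaptor gene Gab3 for 6330407A03Rik (r = 0.94). 4932438A13Rik was most like Fat3 (r = 0.98) and Thoc2 (r = 0.97), an mRNA export factor. For Myo9a the brightest probe set was most like Uxs1 and Ppia (r = 1.00 each), which differed by 0.01 each, so likeness there followed the replicate number.

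No detection threshold was applied to the markers, and cycling genes had higher means in fosB-null arrays in 2 of the pairs. Of the 9 measured microglial markers, P2ry12 had the lowest log2 signal, at 8.86 in fosB-null and 8.78 in wild-type arrays. Trem2 had the highest, at 13.61 in fosB-null and 13.62 in wild-type arrays. Csf1r was at 13.44 in fosB-null and 13.42 in wild-type arrays, and the median difference over the list was 0.02. Of 9 astrocyte markers 8 were tied in all pairs, and of 9 neuronal markers 4 were. Their summed log2 signal was 65.2 to 66.6 in fosB-null and 65.2 to 66.6 in wild-type arrays for astrocytes, and 63.4 to 64.3 in fosB-null and 63.4 to 64.4 in wild-type arrays for neurons. Of 9 oligodendrocyte lineage markers 5 had lower means and 1 higher, with summed log2 signals of 74.0 to 75.4 in fosB-null and 74.0 to 76.2 in wild-type arrays. Mbp, a myelin protein gene, was lower in every pair, at -0.32, -0.24 and -0.06, with groups that did not overlap. Cspg4, a proteoglycan gene of precursor cells, differed by -0.36, -0.43 and 0.20. Of 9 fibroblast and mural markers 6 had higher means and 0 lower, with summed log2 signals of 66.2 to 68.1 in fosB-null and 65.6 to 67.2 in wild-type arrays and mean differences of 0.09, 0.10 and -0.03 in the pairs. Among them Postn, which encodes the matrix protein periostin, differed by 0.69, 0.67 and -0.57. Of 7 endothelial markers 3 had higher and 3 lower means, with summed log2 signals of 55.0 to 56.2 in fosB-null and 54.9 to 56.1 in wild-type arrays. The part of these lists and of the proliferation genes in the results was not tested. All 19 measured proliferation genes had higher means in fosB-null arrays. Their summed log2 signal was 187.5 to 199.5 in fosB-null and 173.9 to 187.6 in wild-type arrays, and the mean over these genes was higher by 0.73 in pair 1 and 0.83 in pair 2 and differed by -0.01 in pair 3 (limma called 0 of the 19 without a block, with the fixed block and with the random block, and 4, 0 and 17 had an unadjusted p under 0.05). In pair 3 Nck2 differed by -0.45, Gdpd1 by -0.34, Mex3b by -0.26, 6330407A03Rik by 0.68 and 4932438A13Rik by 0.36. In the same pair Atp13a3 differed by 0.22 and Myo9a by 0.01 on the brightest probe sets. In RNA of whole cultures, fewer cells of a type and less RNA per cell cannot be told apart.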

How the data were processed

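The deposited values are log2 signals, 1 per probe set and array, and the submitters' processing notes name Expression Console (Affymetrix) as the authors' software. For its version and settings, the sources used here give nothing. That values are log2 follows from their range (1.73 to 14.6, array medians 7.76 to 7.92). The amplified target was made from 100 ng of total RNA, per the labels' protocols. Of 35557 probe sets, 21789 had 1 gene symbol in the platform table, 1621 several and 12147 none. The 23410 with a symbol were tested. Symbols were updated through RefSeq (GRCm38.p6), where 21698 of the single-gene probe sets were found. Positions from that table served for gene order only.

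Groups were compared without a block in limma 3.58.1 (R 4.3.3), with two-sided moderated tests and Benjamini-Hochberg adjustment over all tested probe sets, and the fit was tested on simulated data. Differences are fosB-null minus wild-type. The brightest single-gene probe set stands for a gene. Named genes are the 7, for each the 2 of highest Pearson r over 6 arrays, and from each list the family and up to 3 genes of largest difference. Marker genes come from the marker lists. A further gene list is not reported here. C5ar2, Tlr3, Fat3 (among genes with many probe sets), Rps12 and Chd7 fall outside this rule and were named after their values were seen. The members and the lists were chosen with earlier results of these data known. Within each replicate number, the 2 arrays' departures from their group means had correlations of 0.91, 0.82 and 0.82, or 0.80, 0.61 and 0.65 over probe sets that differ within the pair, so the numbers were taken to pair the arrays. This rests on the values, since no label describes a pairing. The number of arrays limits the precision. Other settings tried were an intensity trend, leaving out the dimmest 40% of probe sets, median centring, quantile normalization, fixed and random replicate blocks, single arrays left out, and means over the probe sets of a gene.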

Additional observations from a re-analysis of the deposited data

How the results depend on the processing

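Of 66 member differences under an alternative, 61 kept their sign and moved by less than the larger of the SDs of the 2 groups. Part of this was fixed in advance. Leaving out 1 of 3 arrays cannot move a group mean by as much as its SD, and the fixed replicate block cannot change a difference. For these alternatives the count is no measure of stability. Among the 61, 4932438A13Rik differed by 0.16 as the mean over its probe sets and by 0.25 on the brightest. That move is more than its fosB-null SD of 0.01 and less than its wild-type SD of 0.12. The other 5 concern the brightest Myo9a probe set, at 0.0051, which differed by -0.0189 with median centring and by 0.13 as the mean over its probe sets, and which ranged from -0.0279 to 0.0376 with single arrays left out, below 0 without wild-type replicate 3 (-0.0279), fosB-null replicate 1 (-0.00813) or fosB-null replicate 2 (-0.0142). For Gdpd1 the difference ranged from -0.46 to -0.23 with single arrays left out, the last without fosB-null replicate 3. The number of members whose groups did not overlap ranged from 5 to 6 with single arrays left out. There it could not fall, since leaving out an array cannot make separate groups overlap. The number was 6 with quantile normalization and 4 by means over probe sets, an alternative added after the data were seen. Over all probe sets limma called 0 with the fixed replicate block, 47 with the random replicate block and 1 to 2 with single arrays left out (2 without wild-type replicate 3). With 1 array of each genotype per replicate number, the fixed replicate block leaves the members' differences unchanged by design. In the pathway lists 0 genes were called under any of the alternatives run. Since few probe sets were called over the whole array, this count is no measure of stability either. Median centring moved the median of all tested probe sets by -0.02 and quantile normalization by -0.02. The list medians moved by less than the spread of the list's level between replicates under each alternative run. That spread is of levels and not of differences, so it is no measure of stability. With single arrays left out, the median of the Mex3b list ranged from -0.09 to -0.003. That of the bridge-like lipid transfer list ranged from -0.04 to 0.06, and the medians of the other lists also fell on both sides of 0.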
